A study of Rattus norvegicus with 4 samples.

Results

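Nitric oxide and cyclic GMP signalling was followed through 9 genes chosen by name: the subunits of soluble guanylyl cyclase (Gucy1a1, Gucy1b1), the nitric oxide synthases (Nos1, Nos2, Nos3), the cyclic GMP-dependent kinase Prkg1 and the natriuretic peptide receptors (Npr1, Npr2, Npr3). Every probe set whose only gene symbol was one of these was taken, which gave 21 of 8740 probe sets for 8 of the 9 genes. Prkg1 had 0 probe sets under this rule and is not analysed here.

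In smooth muscle, nitric oxide made by the synthases binds soluble guanylyl cyclase, an enzyme of an alpha and a beta subunit that turns GTP into cyclic GMP. Natriuretic peptides reach the same messenger through Npr1 and Npr2, membrane receptors that are guanylyl cyclases themselves, while Npr3 lacks the cyclase and clears the peptides. Cyclic GMP activates its kinase, which relaxes the muscle by lowering calcium and its effect on myosin, and phosphodiesterases end the signal.

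RNA came from the myometrium, the muscular wall of the uterus, of female rats aged 60 days. All animals had been ovariectomized 1 week before, the controls too. They then received estradiol benzoate, an ester of the hormone, at 10 µg/kg under the skin, or vehicle. Uterine horns were collected 24 h or 6 h later, and the myometrium was separated and frozen. The 4 groups were estradiol at 24 h, control at 24 h, estradiol at 6 h and control at 6 h, each with 1 oligonucleotide array and the pooled RNA of 6 animals. With 1 array a group there is no replicate error, so differences within a time describe 2 pools and were not tested. In bulk tissue, fewer cells of a type and less RNA per cell cannot be told apart.

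The arrays had median signals between 144 and 169 after scaling to a common trimmed mean of 500. A probe set was read as measured where it exceeded a floor set at the 40th percentile of an array, between 89.5 and 108 signal units, on at least 1 array, which held for 6157 probe sets. A difference is given as called where it reached 2-fold, a log2 difference of 1, with signals below the floor raised to it. Both 24 h arrays were scanned on 1 day and both 6 h arrays on another, so a difference between times cannot be told apart from scan day. After scaling, 9 spiked control probe sets were on average 3.09-fold higher at 24 h than at 6 h with the estradiol label. In controls they were 1.75-fold higher at 24 h. Within a time they were 1.35-fold higher with estradiol at 24 h and 1.31-fold lower with the estradiol label at 6 h. For the 24 h control array, the fluidics record broke off during a wash. Known estrogen-induced genes of the rat uterus served as a check, and Igf1, Pgr, S100g and Hsd11b2 were higher with estradiol at 24 h by log2 differences of 2.96, 1.71, 1.46 and 2.92. They were lower on the array labelled estradiol at 6 h by log2 differences of -3.48, -2.53, -3.41 and -3.06. The 6 h labels are thus contradicted by this check, and the 6 h arrays are named by label only. All 10 smooth muscle markers on the arrays, among them Acta2 and Myh11, were above the floor on all 4 arrays, and 0 of them differed 2-fold within a time.

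The promoters of the soluble guanylyl cyclase genes are shown because both genes stood apart in the same way on the arrays. In the RefSeq genes of assembly GRCr8, Gucy1b1 and Gucy1a1 are neighbouring protein-coding genes on chromosome 2, both read from the minus strand. The stretches run from 250 bases before to 50 bases after the start that the RefSeq table uses. The Gucy1a1 stretch lies wholly inside the gene as annotated, which begins at position 169780360. The Gucy1b1 stretch lies partly inside its gene, which begins at position 169697060. Capitals mark the motifs found on either strand among 6 searched: the full palindromic estrogen response element, the GGTCA core of that element, the Sp1 box GGGCGG, the AP-1 site TGANTCA, the CCAAT box CCAAT and the TATA box TATAAA.

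Gucy1a1, chr2:169779574-169779873, minus strand: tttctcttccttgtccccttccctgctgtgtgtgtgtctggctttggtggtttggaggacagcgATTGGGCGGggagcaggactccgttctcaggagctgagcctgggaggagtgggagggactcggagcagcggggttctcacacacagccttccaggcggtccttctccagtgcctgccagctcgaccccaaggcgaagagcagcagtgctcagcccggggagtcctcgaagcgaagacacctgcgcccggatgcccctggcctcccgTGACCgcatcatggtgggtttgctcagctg

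Gucy1b1, chr2:169696938-169697237, minus strand: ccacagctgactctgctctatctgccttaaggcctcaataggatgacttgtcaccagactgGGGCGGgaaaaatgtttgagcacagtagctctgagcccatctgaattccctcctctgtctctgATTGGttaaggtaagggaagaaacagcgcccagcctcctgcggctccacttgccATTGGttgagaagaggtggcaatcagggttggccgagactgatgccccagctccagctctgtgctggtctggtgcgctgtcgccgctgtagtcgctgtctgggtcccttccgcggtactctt

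Neither stretch held the full estrogen response element, which 0.0269% of 33469 promoters of the same length held. The Gucy1a1 stretch held 1 GGTCA core, on the opposite strand, found in 40.5% of all promoters. Each stretch held 1 Sp1 box, found in 33.1% of all promoters. The CCAAT box, present in 37.5% of all promoters, was found once before the start used for Gucy1a1 and at 2 places before that used for Gucy1b1. Each time it was on the opposite strand. The Sp1 box of Gucy1a1 overlaps its CCAAT box. Motif matches describe letters and no binding was measured.

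Both subunits of soluble guanylyl cyclase were lower with estradiol at 24 h, and both were higher on the array labelled estradiol at 6 h. Gucy1a1, which encodes the alpha subunit, had a signal of 195 in the estradiol pool and 1241 in the control pool at 24 h. At 6 h it had 1385 on the estradiol-labelled array and 353 on the control-labelled one. It was thus low on the 24 h estradiol array and the array labelled control at 6 h, and high on the other pair, a split that crosses the labels. The log2 difference was -2.67 at 24 h, 6.37-fold lower, and 1.97 at 6 h, 3.92-fold higher with the estradiol label. At 24 h this was rank 8 from the lowest among the 6157 measured probe sets, and at 6 h rank 62 from the highest.

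Gucy1b1 encodes the beta subunit, which holds the haem that senses nitric oxide. Its signal was 173 in the estradiol pool and 442 in the control pool at 24 h, against 395 on the estradiol-labelled array and 129 on the control-labelled one at 6 h. The same arrays were low and high as for Gucy1a1, though the lowest value lay on another array. Gucy1b1 was 2.55-fold lower at 24 h, a log2 difference of -1.35, and 3.07-fold higher with the estradiol label at 6 h, a log2 difference of 1.62. With the floor at the 60th percentile the 24 h difference was -0.95 and the 6 h difference 0.62, both under 2-fold. Against the control of the other time, which was tried only after the data had been seen, the log2 difference of Gucy1b1 was 0.43 at 24 h and -0.16 at 6 h.

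Gucy1a1 and Gucy1b1 had 1 probe set each, so no second probe set bears on either. In order of signal, the 24 h control and the array with the 6 h estradiol label were neighbours for Gucy1a1, with a log2 difference of 0.16. The 24 h estradiol array lay below the array labelled control at 6 h by a log2 difference of -0.86, also under 2-fold. Against the control of the other time, Gucy1a1 was thus under 2-fold at both times. Being lower at 24 h and higher at 6 h, both past 2-fold, was found for 1.93% of measured probe sets. In the opposite order, higher at 24 h and lower at 6 h, it was 1.51%, and past 2-fold in the same direction at both times it was 0.65%. Estradiol animals at 24 h against those labelled estradiol at 6 h gave log2 differences of -2.83 for Gucy1a1 and -1.19 for Gucy1b1. Controls at 24 h against those labelled control at 6 h gave 1.81 and 1.78.

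Among protein-coding genes up to 8 places from this pair on chromosome 2, 6 others had a named probe set. Gria2, Tdo2, Fgg, Fga and Fgb were below the floor on all 4 arrays. Plrg1, a splicing factor, read 931 in the estradiol pool and 1183 in the control pool at 24 h, and 1059 on the estradiol-labelled array and 1346 on the control-labelled one at 6 h. It differed by less than 2-fold at both times.

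**Figure D1:**
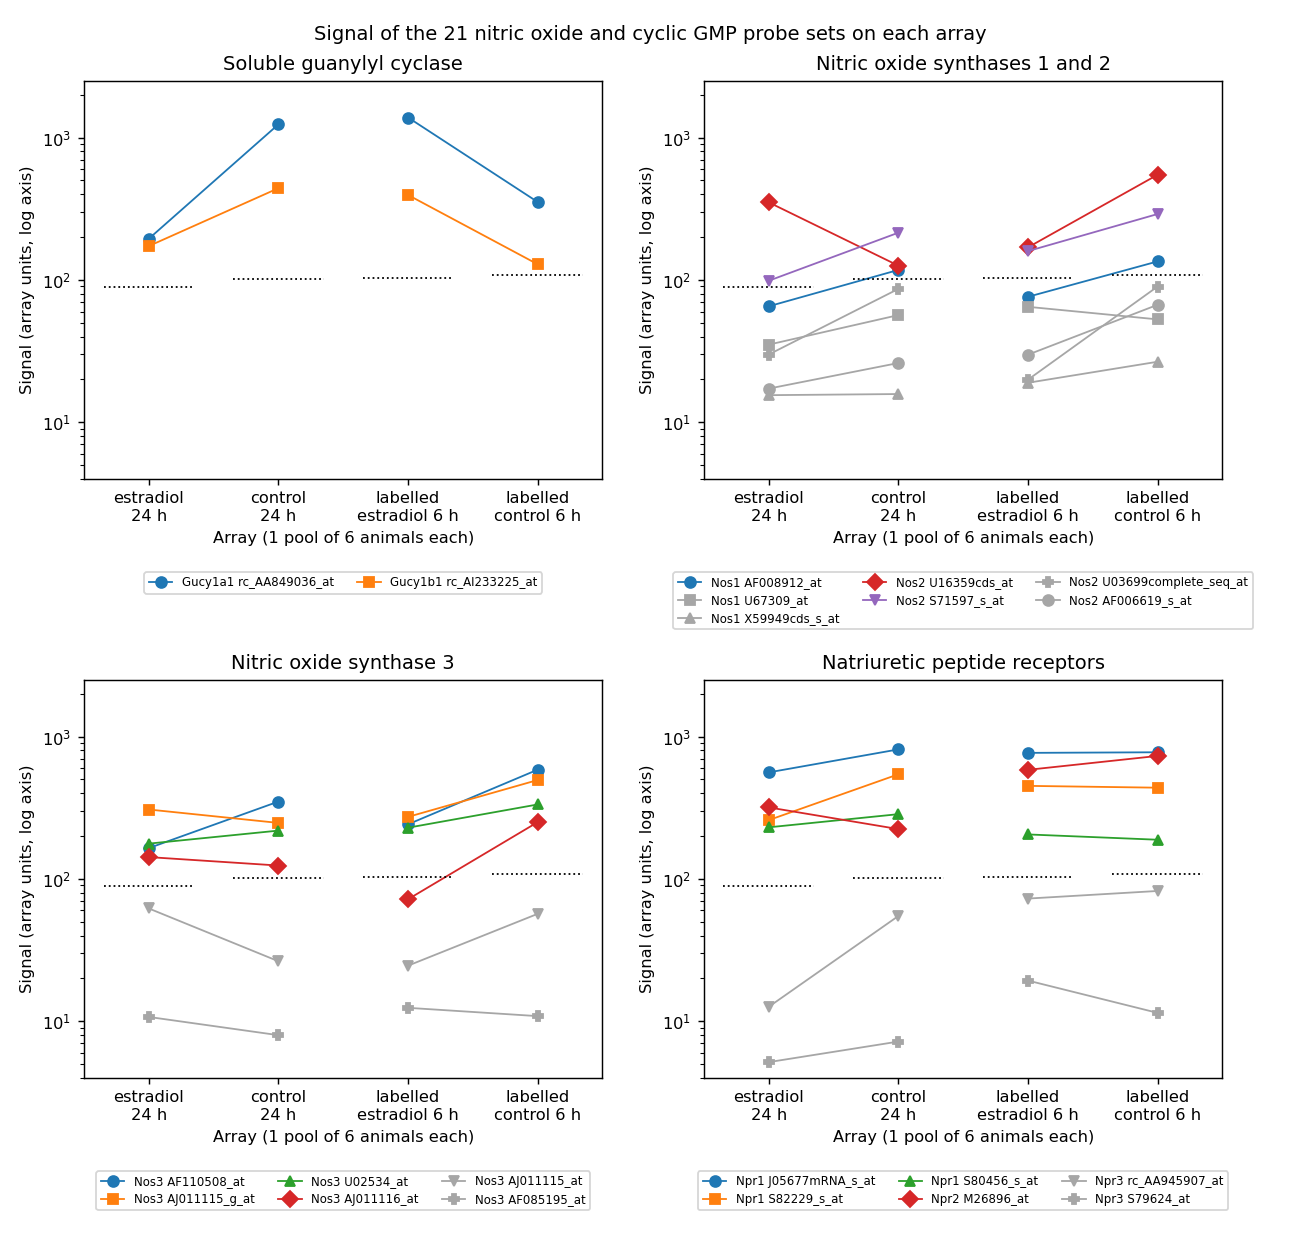
Signal in array units on a log axis for the 21 probe sets, on the estradiol and control arrays at 24 h and the arrays labelled estradiol and control at 6 h. Each point is 1 array of 1 pool, lines join the arrays of 1 time, dotted bars are the floors, and grey marks probe sets below the floor on all arrays. Gucy1a1 lies at 195 and 353 on the 24 h estradiol array and the array labelled control at 6 h, and at 1241 and 1385 on the other pair.

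The nitric oxide synthases did not share one pattern, and the probe sets of Nos2, the inducible synthase of immune and other activated cells, went in opposite directions at 24 h. Its brightest probe set, U16359cds_at, had a signal of 351 in the estradiol pool and 126 in the control pool at 24 h. At 6 h it had 169 on the estradiol-labelled array and 548 on the control-labelled one. This is the mirror image of the guanylyl cyclase subunits, high where they were low. The log2 difference was 1.48 at 24 h, 2.79-fold higher with estradiol, and -1.69 at 6 h, 3.24-fold lower with the estradiol label. With the floor at the 60th percentile the 24 h difference was 0.49. Against the control of the other time, it was -0.64 at 24 h and 0.43 at 6 h.

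The second Nos2 probe set, S71597_s_at, was lower under both estradiol labels. It read 98.7 in the estradiol pool and 215 in the control pool at 24 h, and 159 on the estradiol-labelled array and 290 on the control-labelled one at 6 h. The log2 difference was -1.12 at 24 h, past 2-fold, and -0.87 at 6 h, under it. The 24 h call was lost with arrays scaled to a common median, with quantile normalization, with the floor at the 60th percentile and with a pseudocount of 50 in place of the floor. U03699complete_seq_at, with signals from 19.9 to 89.8, and AF006619_s_at, with signals from 17.2 to 66.9, were below the floor on all arrays. A further 3 probe sets that the platform table pairs with Nos2 and a pseudogene together were not used. No direction can therefore be given for Nos2 as a gene at 24 h. At 6 h both measured probe sets were lower on the estradiol-labelled array, 1 of them past 2-fold.

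Nos3, the synthase of endothelium, had 6 probe sets, of which 4 were above the floor on at least 1 array. AF110508_at had a signal of 165 in the estradiol pool and 350 in the control pool at 24 h, against 242 on the estradiol-labelled array and 586 on the control-labelled one at 6 h. It was lower under the estradiol label at both times, by log2 differences of -1.09, or 2.12-fold, and -1.28, or 2.42-fold. The 24 h call was lost under the same 4 settings as that of S71597_s_at. The 6 h call held under all 6 settings, among them the deposited values, which the scaling left unchanged.

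The other Nos3 probe sets did not follow at 24 h. AJ011115_g_at read 307 in the estradiol pool and 248 in the control pool, and 273 on the estradiol-labelled array and 495 on the control-labelled one at 6 h. U02534_at read 177 in the estradiol pool and 219 in the control pool at 24 h, and 229 and 334 on the arrays labelled estradiol and control at 6 h. Both stayed under 2-fold at both times. AJ011116_at read 142 in the estradiol pool and 124 in the control pool at 24 h, and 72.0 on the estradiol-labelled array, below its floor, against 251 on the control-labelled one at 6 h. It was at least 2.44-fold lower with the estradiol label at 6 h, but with the floor at the 60th percentile the log2 difference was 0.043. AJ011115_at and AF085195_at, with highest signals of 62.0 and 12.4, were below the floor throughout. For all 4 measured probe sets the array labelled control at 6 h was the brightest of the 4.

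Nos1, the synthase of nerve, was near the floor. AF008912_at had 65.3 in the estradiol pool, below the floor, and 118 in the control pool at 24 h, and 76.1 on the estradiol-labelled array, below the floor, against 135 on the control-labelled one at 6 h. Both controls were brighter, but the differences against the floors, at log2 -0.39 and -0.40, stayed under 2-fold. U67309_at and X59949cds_s_at, with highest signals of 64.7 and 26.6, were below the floor on all arrays.

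For the cell types that carry each synthase, the summed signal of the markers was lower under the estradiol label at both times, while few of the endothelial and nerve markers passed 2-fold and leukocyte markers went both ways at 24 h. Of all measured genes, 8.68% were higher and 8.04% lower past 2-fold at 24 h, and 6.47% higher and 5.08% lower at 6 h. A sum weighs its brightest probe sets most. The summed signal of 7 endothelial markers was 1060 in the estradiol pool and 1763 in the control pool at 24 h, and 1428 on the estradiol-labelled array and 1935 on the control-labelled one at 6 h. Of these markers 6 were measured, and 1 was lower past 2-fold at each time, while Sele was below the floor on all arrays. Their median log2 difference was -0.68 at 24 h and 0.020 at 6 h. The lower sum at 6 h rested on Kdr, with 184 on the estradiol-labelled array and 705 on the control-labelled one. Pecam1, Vwf and Flt1 were higher with the estradiol label at 6 h, and Selp and Icam2 lower. Nos3 AF110508_at and the endothelial sum had the same order over the arrays, an order of the sum that also rested on Kdr. The part of endothelial cells in the Nos3 values was not tested. The sum over 13 macrophage and leukocyte markers was 7083 in the estradiol pool and 9491 in the control pool at 24 h, and 7580 on the estradiol-labelled array and 10397 on the control-labelled one at 6 h. Of the 12 measured, 3 were higher and 5 lower at 24 h, and 0 higher and 2 lower at 6 h, with Itgam below the floor on all arrays. S71597_s_at of Nos2 had this order of the sum too, and U16359cds_at did not. The order of the 2 controls in the sum rested on Lyz2. Lyz2 read 3236 in the estradiol pool and 997 in the control pool at 24 h. At 6 h it read 2208 on the estradiol-labelled array and 3280 on the control-labelled one. The part of leukocytes in the Nos2 values was not tested. The sum over 9 nerve and glia markers was 677 in the estradiol pool and 1194 in the control pool at 24 h, and 695 on the estradiol-labelled array and 1231 on the control-labelled one at 6 h. S100b, Mbp and Nefm, which define glia and axons, were below the floor on all arrays, and of the 6 measured 0 were past 2-fold at 24 h and 1 was lower at 6 h. The part of nerve in the Nos1 values was not tested.

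Beside the guanylyl cyclase subunits, the summed signal of 10 smooth muscle markers was 117248 in the estradiol pool and 107966 in the control pool at 24 h. At 6 h it was 81713 on the estradiol-labelled array and 96762 on the control-labelled one. Of these markers Actg2 had the widest gap in signal at 24 h, with 15971 in the estradiol pool and 9674 in the control pool. The part of smooth muscle in the guanylyl cyclase values was not tested. Of 8 epithelial markers 5 were at least 2-fold higher and 0 lower with estradiol at 24 h, and 0 higher and 3 lower at 6 h. Their sum was 3884 in the estradiol pool and 1415 in the control pool at 24 h, and 1044 on the estradiol-labelled array and 2030 on the control-labelled one at 6 h. The part of epithelium in the member values was not tested.

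Of the 6 probe sets of the natriuretic peptide receptors 4 were measured, and 1 of these, of Npr1, was past 2-fold within a time. Npr1, the receptor of the atrial and brain peptides, had 3 probe sets above the floor on all arrays. J05677mRNA_s_at read 561 in the estradiol pool and 813 in the control pool at 24 h, and 769 on the estradiol-labelled array and 776 on the control-labelled one at 6 h. S80456_s_at read 231 in the estradiol pool and 285 in the control pool at 24 h, and 205 and 189 on the arrays labelled estradiol and control at 6 h. These 2 probe sets stayed under 2-fold at both times.

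The remaining Npr1 probe set, S82229_s_at, had a signal of 259 in the estradiol pool and 544 in the control pool at 24 h, against 451 and 438 on the arrays labelled estradiol and control at 6 h. The 24 h estradiol array was the low one. At 24 h the log2 difference was -1.07, or 2.10-fold lower, and at 6 h it was 0.043. The 24 h values lay between -1.07 and -0.93 over 6 settings, and the call was lost with a common median, quantile normalization and the pseudocount. All 3 probe sets of Npr1 had negative log2 differences at 24 h, namely -0.54, -1.07 and -0.31, where the median over all measured probe sets was -0.17. With a common median they were -0.40, -0.93 and -0.17.

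Npr2, the receptor of C-type natriuretic peptide, separated the times rather than the treatments. Its signal was 318 in the estradiol pool and 224 in the control pool at 24 h, and 584 on the estradiol-labelled array and 732 on the control-labelled one at 6 h. Both 24 h arrays lay below both 6 h arrays. The estradiol differences were 0.51 at 24 h and -0.32 at 6 h on the log2 scale, under 2-fold. Between times the controls differed by -1.71, 3.27-fold lower at 24 h, and the arrays with the estradiol label by -0.88. Against the control of the other time, Npr2 therefore gave -1.20 at 24 h and 1.38 at 6 h. Npr3 was below the floor on all 4 arrays, with signals from 12.6 to 82.3 for one probe set and from 5.16 to 19.3 for the other, so its differences cannot be read.

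Of the 21 probe sets 13 were measured, and of these 13, 1 was higher and 5 were lower past 2-fold with estradiol at 24 h. Over all measured probe sets these shares were 8.3% higher and 8.36% lower, or 511 and 515 probe sets, which became 630 and 368 with arrays scaled to a common median. At 6 h 2 of the 13 were higher and 3 lower with the estradiol label, against 6.94% and 5.38% of all measured probe sets. The median log2 difference of the 13 was -0.39 at 24 h and -0.40 at 6 h, beside -0.17 and -0.074 over all measured probe sets. The first of those, -0.17, equals the log2 ratio of the 2 floors. Probe sets of 1 gene share their target, so these counts are not counts of independent genes. Between times, 1 of the 13 was higher and 2 lower at 24 h with the estradiol label, where 5.99% and 9.29% of measured probe sets were, or 369 and 572, which became 598 and 343 with a common median and 448 and 387 with quantile normalization. Between controls 2 of the 13 were higher and 4 lower at 24 h, where 8.43% and 9.45% were.

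**Figure D2:**
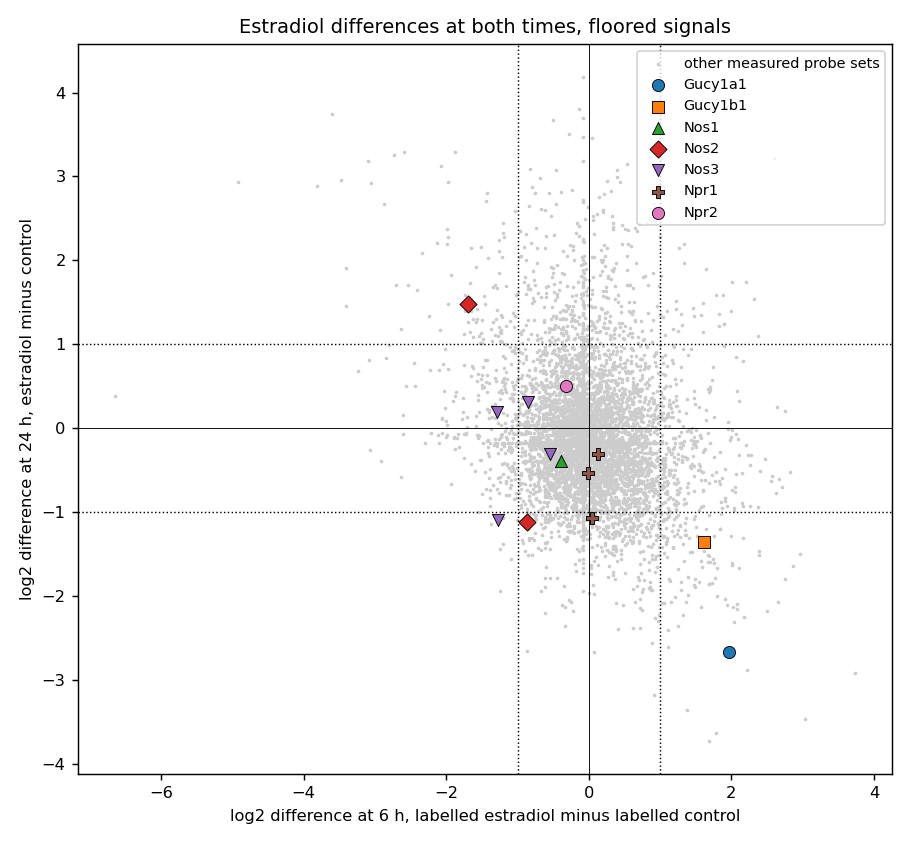
Log2 differences of floored signals for measured probe sets, estradiol minus control at 24 h on the vertical axis and labelled estradiol minus labelled control at 6 h on the horizontal axis. Each point is 1 probe set, dotted lines mark 2-fold, and coloured points are the 13 measured member probe sets. Gucy1a1 (-2.67 at 24 h, 1.97 at 6 h) and Gucy1b1 (-1.35, 1.62) lie at the lower right, and 1 Nos2 probe set (1.48, -1.69) at the upper left.

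The only test the design allows is an additive limma fit of all 4 arrays with treatment and time as terms and 1 residual degree of freedom. It assumes the same treatment effect at both times, which the opposite differences of Gucy1a1, Gucy1b1 and Nos2 U16359cds_at do not meet. Its treatment term also uses the 6 h labels, which the check genes contradict. For Igf1, Pgr, S100g and Hsd11b2 it gave treatment effects of -0.26, -0.41, -0.98 and -0.069 on the log2 scale. Opposite differences cancel at least in part in this term, so a lack of calls cannot be read as a lack of effect. After Benjamini-Hochberg adjustment, limma called 0 of 6157 probe sets (0%) for treatment, with 104 at an unadjusted p under 0.05, and 0 (0%) for time, with 220. Nos3 AF110508_at, lower in both comparisons, had a limma treatment effect of -1.18 on the log2 scale with a standard error of 0.34, an unadjusted p of 0.0256 and an adjusted p of 0.999. Nos2 S71597_s_at had -0.99 with a standard error of 0.35, a p of 0.0445 and an adjusted p of 0.999 in limma. For Npr2 the limma time effect was -1.29 with a standard error of 0.40, a p of 0.0304 and an adjusted p of 0.938. The standard error for Gucy1a1 was 1.20 around a limma treatment effect of -0.35. None of the member differences passed this test, whose treatment term rests on the contradicted 6 h labels.

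Beyond the 9 genes, a list of 77 genes of the pathway was read, of which 52 had a named probe set and 41 were measured, each by its brightest probe set. With estradiol at 24 h 1 of the 41 was higher and 8 lower past 2-fold, where 8.68% and 8.04% of 3619 measured genes were. At 6 h 3 were higher and 2 lower with the estradiol label, where 6.47% and 5.08% of measured genes were. The median log2 difference of the list was -0.26 at 24 h and 0.061 at 6 h, beside -0.17 and -0.059 over all measured genes.

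Upstream of the cyclases, Slc7a1, a carrier of arginine, the substrate of the synthases, had a signal of 228 in the estradiol pool and 63.3 in the control pool at 24 h, where the control was below the floor. Its 6 h signals were 138 on the estradiol-labelled array and 853 on the control-labelled one. It was at least 2.27-fold higher at 24 h and 6.19-fold lower with the estradiol label at 6 h, in the order of Nos2 U16359cds_at. With the floor at the 60th percentile both 24 h arrays were at the floor. Cav1, caveolin, which holds the endothelial synthase inactive, read 1000 in the estradiol pool and 2286 in the control pool at 24 h, 2.29-fold lower, and 1125 and 788 on the arrays labelled estradiol and control at 6 h. Sod3, which removes extracellular superoxide that would consume nitric oxide, read 243 in the estradiol pool and 529 in the control pool at 24 h, 2.18-fold lower, and 516 with the estradiol label and 399 with the control label at 6 h. Gch1, Spr, Qdpr and Pts, which make or recycle the synthase cofactor tetrahydrobiopterin, stayed under 2-fold at both times.

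Among ligands and their removal, Nppc, the C-type natriuretic peptide that binds Npr2, had 269 in the estradiol pool and 150.0 in the control pool at 24 h. At 6 h it had 35.1 on the estradiol-labelled array, below the floor, and 734 on the control-labelled one. It was 1.79-fold higher at 24 h, under the rule, and at least 7.16-fold lower with the estradiol label at 6 h. Nppa and Nppb were below the floor on all arrays. Mme, neprilysin, which degrades natriuretic peptides, had 66.3 in the estradiol pool, below the floor, and 327 in the control pool at 24 h. It was at least 3.66-fold lower, and read 138 and 132 on the arrays labelled estradiol and control at 6 h. Mme is also one of the 9 stromal markers used here. At 24 h 0 of them were higher and 2 lower, Mme itself and Vcam1, where 8.68% and 8.04% of measured genes were. At 6 h 1 was higher and 0 lower, where 6.47% and 5.08% of measured genes were.

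Of the phosphodiesterases, 2 were lower at 24 h. Pde1b, stimulated by calmodulin, had 29.8 in the estradiol pool, below the floor, and 527 in the control pool, at least 5.89-fold lower. The 6 h signals were 408 on the estradiol-labelled array and 220 on the control-labelled one, under 2-fold. Pde2a, stimulated by cyclic GMP, had 78.9 in the estradiol pool, below the floor, and 228 in the control pool at 24 h, at least 2.54-fold lower. In the 6 h pair it had 166 on the estradiol-labelled array and 46.1 on the control-labelled one, below the floor. Pde5a, which is specific for cyclic GMP, read 101 in the estradiol pool and 146 in the control pool at 24 h, and was below the floor on both 6 h arrays. Pde6d, a prenyl-binding protein first found with the photoreceptor enzyme, was 2.10-fold higher with the estradiol label at 6 h, with 293 on the estradiol-labelled array and 139 on the control-labelled one.

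Among targets of the kinase or of cyclic GMP itself, Pln, phospholamban, which restrains the calcium pump, followed the guanylyl cyclase subunits. Its signal was 124 in the estradiol pool and 391 in the control pool at 24 h, and 387 on the estradiol-labelled array and 112 on the control-labelled one at 6 h. It was 3.16-fold lower at 24 h and 3.47-fold higher with the estradiol label at 6 h. Kcnma1, the large-conductance potassium channel, had 56.7 in the estradiol pool, below the floor, and 211 in the control pool at 24 h, at least 2.36-fold lower. Itpr1, a calcium release channel, had 495 in the estradiol pool and 250.2 in the control pool at 24 h, 1.98-fold higher and just under the rule. The 6 h arrays gave 1295 on the estradiol-labelled array and 346 on the control-labelled one, 3.74-fold higher. Cnga3, a channel opened by cyclic GMP and known from cone photoreceptors, had 85.9 in the estradiol pool, below the floor, and 183 in the control pool at 24 h, at least 2.05-fold lower. Ppp1r12a, the targeting subunit of myosin phosphatase, and Kcnmb1, the beta subunit of the large-conductance channel, stayed under 2-fold at both times. With the floor at the 60th percentile the 24 h calls of Mme, Pde2a, Kcnma1, Pln and Cnga3 and the 6 h calls of Pln and Pde6d were lost. The 24 h calls of Cnga3 and Sod3 were also lost with a common median, quantile normalization and the pseudocount, and the 6 h call of Pde6d with the pseudocount.

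**Figure D3:**
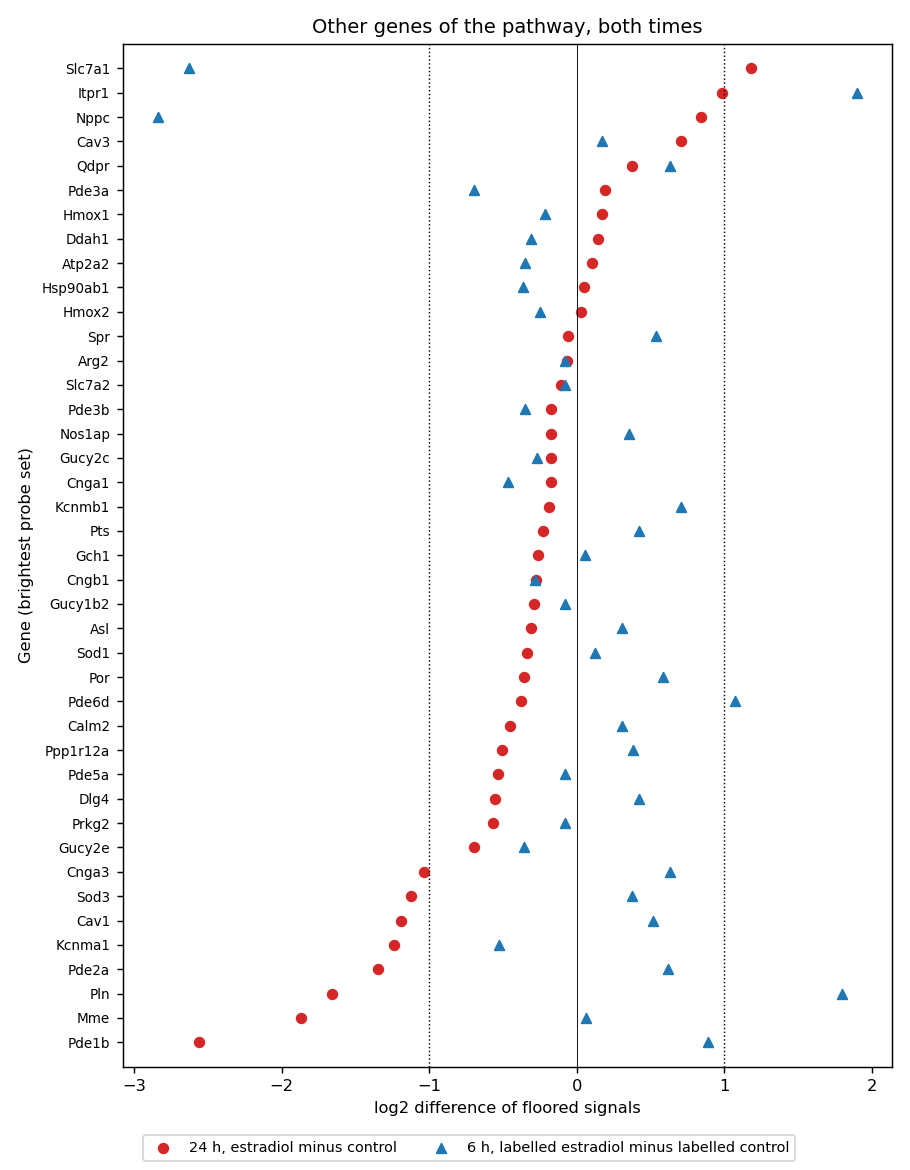
Log2 differences of floored signals for the 41 measured genes of the pathway list, 1 row a gene by its brightest probe set, ordered by the 24 h value. Circles are estradiol minus control at 24 h, triangles labelled estradiol minus labelled control at 6 h, and dotted lines mark 2-fold. Slc7a1 (1.18 and -2.63) and Pln (-1.66 and 1.79) are past 2-fold in opposite directions at the 2 times.

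Gucy1a1 had the widest range over the arrays among the brightest probe sets of the members, so its profile was compared with those of 3618 other measured genes. The measure was the Euclidean distance between log2 signals centred over the 4 arrays. The 5 nearest genes were Sult1a1, a sulfotransferase, at 0.38, Igf1r, the receptor of insulin-like growth factor 1, at 0.47, Syt5, a synaptotagmin, at 0.51, Ints6l at 0.57 and Dbp, a clock output factor, at 0.62. Gucy1b1 was at rank 61 with a distance of 1.25, and Nos2, by its brightest probe set, at rank 3533. Sult1a1 read 149 in the estradiol pool and 1096 in the control pool at 24 h, and 1003 and 215 on the arrays labelled estradiol and control at 6 h. With 4 arrays, likeness of profile rests on 4 points and is a description.

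**Figure D4:**
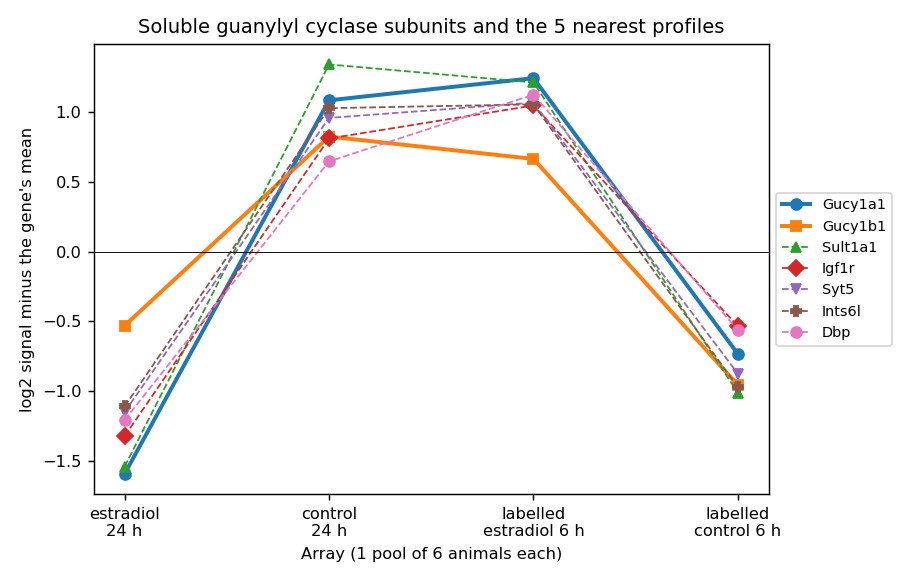
Log2 floored signal minus the mean of each gene over the 4 arrays, for Gucy1a1 and Gucy1b1 (solid lines) and the 5 genes nearest to Gucy1a1 (dashed lines). Syt5 is at the floor on the arrays of estradiol at 24 h and labelled control at 6 h. Each point is 1 array of 1 pool. All 7 genes lie below their mean on the arrays of estradiol at 24 h and labelled control at 6 h, and above it on the other pair.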

How the data were processed

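Biotin-labelled RNA of 4 pools was hybridized to 4 Affymetrix rat expression arrays, 1 a pool. The deposited intensities are linear probe set signals from MAS5, per the submitters' processing notes, and what version or settings were used is not given in the sources used here. Deposited instrument records hold other values, of which lot, fluidics and scan day were used, and per the file headers all arrays were of 1 lot. Each array was set to a 2% trimmed mean of 500, 59 Affymetrix controls were dropped, and signals under the 40th percentile of an array were raised to it before log2 was taken. Of the probe sets, 7018 had 1 symbol in the platform table, 308 had several and 1473 had none. Where the dimmer array was at the floor, the fold is a lower bound and reads "at least". The limma fit (3.58.1, R 4.3.3) used lmFit and eBayes on probe sets above the floor on at least 1 array, with an adjusted threshold of 0.05. Other steps ran in Python 3.11.15 with numpy 2.4.6 and pandas 2.3.3. The 2-fold rule within a time and the limma treatment term were tested on simulated data. The number of arrays limits the precision. Alternatives were other scalings, floors and fold rules, and averaging over the probe sets of a gene.

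The 9 genes and all lists were chosen with earlier results of these data known. Genes of the pathway list were named where they passed the 2-fold rule at either time, and a few others were named after their values were seen. Promoters came from the RefSeq table of GRCr8, which matched 7 of the 9 genes.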

Additional observations from a re-analysis of the deposited data

Results flagged for a closer look

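The estradiol difference was past 2-fold in opposite directions at 24 h and at 6 h, as labelled, for 3 of the 13 measured member probe sets and for 2 of the 41 measured genes of the pathway list. Over all measured probe sets, 1.93% were lower at 24 h and higher at 6 h past 2-fold, and 1.51% higher at 24 h and lower at 6 h. The log2 difference at 24 h minus that at 6 h was -4.64 for Gucy1a1 and -2.97 for Gucy1b1. It was 3.17 for Nos2 U16359cds_at, while the other measured Nos2 probe set was lower at both times. It was -3.45 for Pln and 3.81 for Slc7a1. The check genes Igf1, Pgr, S100g and Hsd11b2 were also past 2-fold in opposite directions, by 2.96 and -3.48 for Igf1. They contradict the 6 h labels. With 1 array a group, the difference between the times was not tested. It cannot be told apart from scan day or from wrong 6 h labels.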

How the results depend on the processing

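The deposited values already had a trimmed mean of 500 on each array. Using them as deposited therefore could change no value or call, and this setting is no check. A common median raised all 24 h differences by 0.14 and those between times with estradiol by 0.22 on the log2 scale, and ended 3 of the 11 calls of member probe sets, all at 24 h (Nos2 S71597_s_at, Nos3 AF110508_at and Npr1 S82229_s_at). Over the 6 scalings and floors, the values as deposited among them, Gucy1a1 stayed between -2.67 and -2.40 at 24 h and between 1.83 and 1.99 at 6 h, past 2-fold in each. Against the control of the other time, Gucy1a1 did not reach 2-fold at 24 h or at 6 h. The number of probe sets called was 1026 at 24 h, 758 at 6 h, 941 between times with estradiol and 1101 between controls. In this order it was 1873, 1493, 1766 and 1896 with the floor at the 20th percentile, and 544, 424, 521 and 582 at the 60th. It was 2305, 1977, 2398 and 2340 with a 1.5-fold rule, and 350, 235, 271 and 410 with a 3-fold rule, counts that change by construction. Of the pathway list 9 genes were called at 24 h and 5 at 6 h. At 24 h this was 15 with the lower floor, 3 with the higher floor, 3 with the 3-fold rule, 5 with averages over the probe sets of a gene and 5 against the 6 h control. At 6 h it was 12 with the lower floor, 3 with the higher floor and 12 with the 1.5-fold rule. Limma called 0 probe sets for either term under all 7 alternatives.

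Directions turned as follows among differences past 2-fold under the reported or the other setting; sign changes of smaller differences are not listed. With the lower floor Nos3 AJ011115_at, at the floor on both 24 h arrays otherwise, was higher by 1.01 at 24 h. Calls gained there, with signals at the floor otherwise, were Nos2 U03699complete_seq_at (-1.53 at 24 h, -1.55 at 6 h), Nos2 AF006619_s_at (-1.13 at 6 h) and Npr3 rc_AA945907_at (-1.09 at 24 h), and at 6 h Pde2a (1.85) and Kcnma1 (-1.33) also gained one. With the higher floor Nos3 AJ011116_at was at 0.043 at 6 h and Slc7a1 at -0.13 at 24 h, the ratio of the raised floors. With the control of 6 h replacing that of 24 h, the 24 h differences were 0.43 for Gucy1b1, -0.64 for Nos2 U16359cds_at, -1.20 for Npr2, -1.45 for Nppc, 0.15 for Pln, 0.34 for Cav1 and -1.90 for Slc7a1. They were -0.60 for Igf1, -0.32 for Pgr and -0.13 for S100g. With the 24 h control at 6 h, they were -0.16 for Gucy1b1, 0.43 for Nos2 U16359cds_at, 1.38 for Npr2, -1.25 for Mme, -0.014 for Pln, -1.02 for Cav1, 0.45 for Slc7a1, 0.083 for Igf1 and -0.13 for Sult1a1. These settings, tried after seeing the data, rest on a 6 h label that the check genes contradict, and the cause was not tested. With 1 array a group no replicate numbers pair arrays, and the limma fit already sets estradiol against control within each time. Signals near the floor limit what can be read of Nos1, Npr3 and the dim probe sets of Nos2 and Nos3.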
